A study of Mus musculus with 13 samples.

Results

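The regions described are the places where the transcription factors SMAD2/3 and FOXL2 were called on the genome of activin-treated mouse gonadotrope-type cells, and the question is what separates FOXL2 regions that hold SMAD2/3 from those that do not. A region was formed by merging, at 1 bp of overlap, the peaks of both replicate libraries of an antibody, and was kept where both libraries had a peak. There were 80739 FOXL2 regions and 5162 SMAD2/3 regions, out of 538751 peaks in all 12 peak lists of the series. Of the FOXL2 regions, 4186 overlapped a SMAD2/3 region by at least 1 bp and 76553 did not.

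The cells were LβT2, a gonadotrope-type line from mouse pituitary, stably transduced with a FLAG-tagged mouse FoxL2 that is induced by doxycycline. All cells recovered for 24 h after seeding, received doxycycline for 48 h, and were held for 2 h in medium with low serum. The libraries used here come from cells then given activin A at 1 nM for 1 h, with 2 samples for each of 3 antibodies (SMAD2/3, the FLAG tag, and histone H3 acetylated at lysine 27), each sample pooled from 3 plates. Vehicle-treated samples exist for the same antibodies and enter only a single alternative, and a Protein-A control sample was not analysed here. FOXL2 binding is therefore that of the induced, tagged protein in a single cell line. The p-values come from permuting 4 replicate values, 2 of peaks with SMAD2/3 and 2 without, that share the same pooled culture samples. They set a difference only against the spread between replicates and do not compare cultures.

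Activin binds serine/threonine kinase receptors that phosphorylate SMAD2 and SMAD3, which then enter the nucleus with SMAD4 and bind DNA, often weakly and beside other factors. FOXL2 is a forkhead transcription factor of the pituitary gonadotrope and the ovary, and in gonadotropes it takes part in the activin response of Fshb, the gene for the follicle-stimulating hormone β-subunit. Acetylation of lysine 27 on histone H3 (H3K27ac) marks active promoters and enhancers.

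The sequences before the starts of 5 genes show regions of both kinds at a base level. Cga encodes the α-subunit shared by the glycoprotein hormones, Gnrhr encodes the receptor for gonadotropin-releasing hormone, and Smad6 encodes an inhibitory SMAD. Their promoters lay in FOXL2 regions that held SMAD2/3. Rplp0 and Rpl41 encode proteins of the large ribosomal subunit, and theirs lay in FOXL2 regions without SMAD2/3. Each sequence is the stretch before the RefSeq start that lies inside the FOXL2 region, from 250 bases before it at most, read 5′ to 3′ on the gene's strand in GRCm38.p6. Capitals mark 3 words searched on both strands: CAGAC (the SMAD word), GTAAA (a short forkhead core) and CAAGGTC (the core bound by the orphan receptor NR5A1). The stretches are chr4:34893529-34893778 (plus strand) for Cga, chr5:86197902-86198151 (minus) for Gnrhr, chr9:64022060-64022185 (minus) for Smad6, chr5:115559217-115559466 (plus) for Rplp0 and chr10:128549217-128549418 (minus) for Rpl41.
Cga: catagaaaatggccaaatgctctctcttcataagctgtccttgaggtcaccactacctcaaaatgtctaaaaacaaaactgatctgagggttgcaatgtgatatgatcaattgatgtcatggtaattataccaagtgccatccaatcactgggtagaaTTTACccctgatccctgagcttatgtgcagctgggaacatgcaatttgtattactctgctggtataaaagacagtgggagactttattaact
Gnrhr: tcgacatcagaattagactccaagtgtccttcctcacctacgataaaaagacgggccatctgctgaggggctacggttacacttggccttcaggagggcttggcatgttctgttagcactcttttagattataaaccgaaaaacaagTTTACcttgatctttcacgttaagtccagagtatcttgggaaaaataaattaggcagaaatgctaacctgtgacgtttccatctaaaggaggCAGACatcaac
Smad6: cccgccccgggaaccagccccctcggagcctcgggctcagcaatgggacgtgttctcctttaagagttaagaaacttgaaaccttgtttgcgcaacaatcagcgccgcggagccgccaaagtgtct
Rplp0: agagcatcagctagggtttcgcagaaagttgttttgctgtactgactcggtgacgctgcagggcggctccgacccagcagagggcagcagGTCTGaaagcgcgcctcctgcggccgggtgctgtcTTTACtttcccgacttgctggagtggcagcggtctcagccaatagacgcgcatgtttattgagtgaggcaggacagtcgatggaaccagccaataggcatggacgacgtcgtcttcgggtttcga
Rpl41: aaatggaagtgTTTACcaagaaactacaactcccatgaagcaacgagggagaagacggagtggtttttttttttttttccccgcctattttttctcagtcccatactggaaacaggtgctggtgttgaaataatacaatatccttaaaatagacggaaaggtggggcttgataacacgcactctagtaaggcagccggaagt

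In these stretches Gnrhr held 1 CAGAC and 1 GTAAA, and Rplp0, without SMAD2/3, also held 1 of each. Cga and Rpl41 each held 1 GTAAA and 0 CAGAC, and Smad6 held 0 of all 3 words. These stretches run from at most 250 bases before the start up to the start, except at Rpl41, where the stretch ends at -49. The bases under both Cga summits and under the SMAD2/3 summits of Gnrhr and Smad6, given next, were thus not searched. The calls at the promoters differed in strength. At Cga, the FOXL2 peak was 47.5-fold and 43.2-fold enriched over background in replicates 1 and 2, and the SMAD2/3 peak 13.7-fold and 11.2-fold, with summits at -346 and -375 relative to the start. At Gnrhr, FOXL2 enrichment was 6.98-fold and 6.57-fold, below that of SMAD2/3 at 10.6-fold and 9.46-fold. Its FOXL2 summit was at -74 and its SMAD2/3 summit at -283. At Smad6, FOXL2 reached 4.35-fold and 5.03-fold and SMAD2/3 8.06-fold and 9.58-fold. The FOXL2 summit there was at -11 and the SMAD2/3 summit at 30, past the start. Rplp0 carried a stronger FOXL2 peak than Gnrhr or Smad6, at 11.5-fold and 15.1-fold, with no SMAD2/3 region. So did Rpl41, at 7.49-fold and 8.11-fold. Cga, Gnrhr, Smad6 and Rpl41 overlapped H3K27ac and Rplp0 did not.

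The 5.18% of FOXL2 regions that held SMAD2/3 (4186 of 80739, Wilson 95% interval 5.03% to 5.34%) compare with 81.8% of SMAD2/3 regions that held FOXL2 (4221 of 5162, interval 80.7% to 82.8%). Each share is that of its own list, and the FOXL2 list is far longer. FOXL2 gave 97701 and 94006 peaks in replicates 1 and 2, SMAD2/3 gave 7784 and 5970, and H3K27ac gave 41763 and 38995. Within replicate 1, 6.25% of FOXL2 peaks overlapped a SMAD2/3 peak, and within replicate 2 it was 5.16%, a mean of 5.71% ± 0.773 (SD, n = 2). The replicate with more SMAD2/3 peaks had the higher share. Read depth is unknown, since the files hold peaks and no read counts, so a region without SMAD2/3 is a place where no peak was called, not a place shown to lack the protein.

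H3K27ac, a readout that the choice of regions did not use, showed a wide gap between FOXL2 regions with and without SMAD2/3. Of the FOXL2 regions with SMAD2/3, 79.7% (3335 of 4186, interval 78.4% to 80.9%) overlapped a region acetylated in both activin libraries, against 13.9% (10630 of 76553, interval 13.6% to 14.1%) of those without. Over all FOXL2 regions the share was 17.3%. Within replicate 1, 77.9% of the FOXL2 peaks with SMAD2/3 and 13.7% of those without were acetylated. Within replicate 2, the shares were 73.6% and 13.7%. The difference of 62.1 percentage points ± 3.04 (SD, n = 2 replicates) exceeded the spread between replicates. Permuting the 4 replicate values exactly (two-sided) gave p = 0.333, which is the smallest p that 4 values can give, for this contrast and for those of width, rank, distance and neighbours below. The permutation did not pair the values with and without SMAD2/3 of a replicate, although both come from the same libraries. The acetylated share was higher with SMAD2/3 on 20 of 20 chromosomes.

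Read the other way, 23.9% of the acetylated FOXL2 regions (3335 of 13965) held SMAD2/3, against 1.27% of the others (851 of 66774). The share rose with the strength of acetylation, from 13.7% in the weakest quartile of acetylated regions by H3K27ac rank to 23.4%, 27.3% and 31.2% in the next quartiles. FOXL2 rank went the other way over these quartiles, from a mean of 66.9 to 57.7. Acetylated FOXL2 regions with SMAD2/3 lay in H3K27ac regions with a median width of 2882 bp, against 2092 bp for acetylated FOXL2 regions without.

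**Figure D1:**
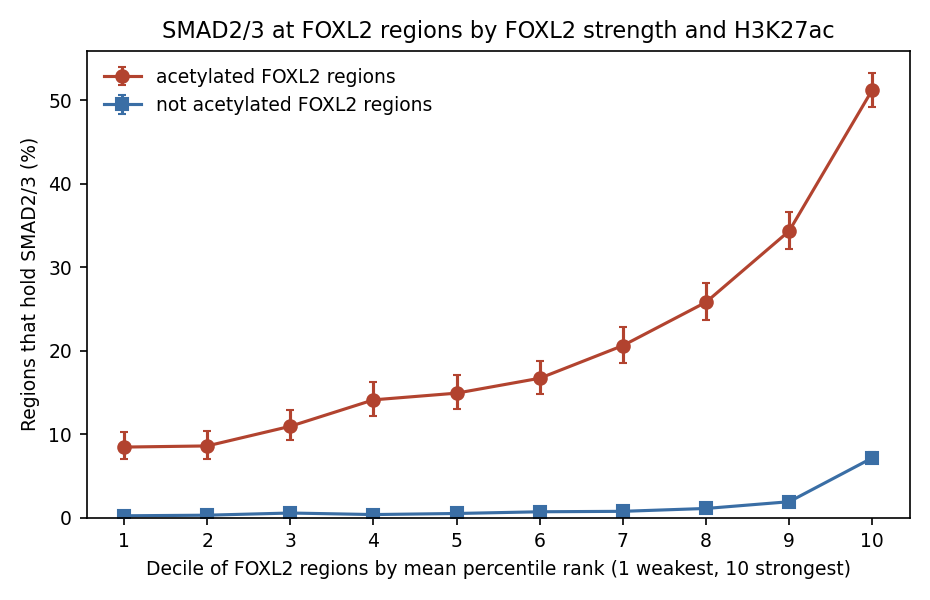
Share of FOXL2 regions that hold SMAD2/3 (percent, vertical axis) by decile of FOXL2 percentile rank (horizontal axis, 1 weakest), for acetylated and not acetylated regions, with Wilson 95% intervals as bars. The acetylated regions run from 8.47% to 51.3% and lie above the others in 10 of 10 deciles.

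FOXL2 itself was stronger where SMAD2/3 was held. Rank here is the percentile of a peak's −log10 q among all peaks of its library, with 100 the strongest, averaged over both libraries. Regions with SMAD2/3 had a mean FOXL2 rank of 77.3, against 54.7 without. In replicate 1 the mean ranks of peaks with and without SMAD2/3 were 73.6 and 48.4, and in replicate 2 they were 74.98 and 48.6. The difference of 25.8 ± 0.792 (SD, n = 2) exceeded the replicate spread. The median fold enrichment of FOXL2 was 13.6 in replicate 1 and 13.1 in replicate 2 at regions with SMAD2/3, against 7.59 and 7.22 at regions without. The ranges overlapped almost entirely, and regions with SMAD2/3 went down to a rank of 2.27.

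The share of FOXL2 regions holding SMAD2/3 was 1.4% in the weakest decile, 2.58% in the fifth, 5.66% in the eighth, 8.76% in the ninth and 20.0% in the strongest. It reached 41.7% (337 of 808) in regions above percentile 99 and 60.5% (49 of 81) in the 81 strongest. Of the 10 strongest FOXL2 regions 8 held SMAD2/3, of the 100 strongest 56 did, and of the 1000 strongest 407 did. Strength alone thus left 44 of the 100 strongest FOXL2 regions without SMAD2/3.

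Acetylation and strength moved with SMAD2/3 separately, as the plot of shares by decile shows. Acetylated regions held SMAD2/3 more often in 10 of 10 deciles, by 7.14-fold in the strongest decile and by up to 36.1-fold in others. Acetylated regions of the weakest decile held it in 8.47% of cases (interval 6.99% to 10.2%), and regions of the strongest decile that were not acetylated in 7.18% (6.54% to 7.88%). Weak acetylated FOXL2 regions and strong ones without acetylation thus held SMAD2/3 at shares with overlapping intervals. After weighting the regions without SMAD2/3 to the rank deciles of those with it, 15.5% of them were acetylated, and the contrast was 64.2 points.

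The regions with a SMAD2/3 peak in a single library stood between the others. FOXL2 regions with no SMAD2/3 peak in either library (74357) had a mean FOXL2 rank of 54.2, a median width of 357 bp and an acetylated share of 12.6%. Those with a peak in 1 library (2193) had 72.2, 499 bp and 56.4%. Those with peaks in both libraries (4189, counted by peaks and not by joint SMAD2/3 regions) had 77.4, 548 bp and 79.7%. On all 3 measures, regions called in 1 library lay closer to those called in both than to those called in neither.

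Peak width differed in the same direction. The median width of FOXL2 regions was 547 bp with SMAD2/3 (middle range 392 to 755 bp) and 360 bp without (279 to 498 bp). In replicate 1 the medians over peaks were 481 and 296 bp, in replicate 2 484 and 288 bp, a difference of 190.5 bp ± 7.78 (SD, n = 2). From the narrowest quartile of FOXL2 regions to the widest, 1.61%, 2.70%, 4.84% and 11.6% held SMAD2/3. Width went with rank, and after weighting to the rank deciles the difference was 55 bp in place of 187 bp. A wide region also offers more bases for a SMAD2/3 region to overlap, and the part of this in the difference was not tested. Within the strongest rank decile alone, the share rose from 12.8% in its narrowest quartile to 27.8% in its widest.

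**Figure D2:**
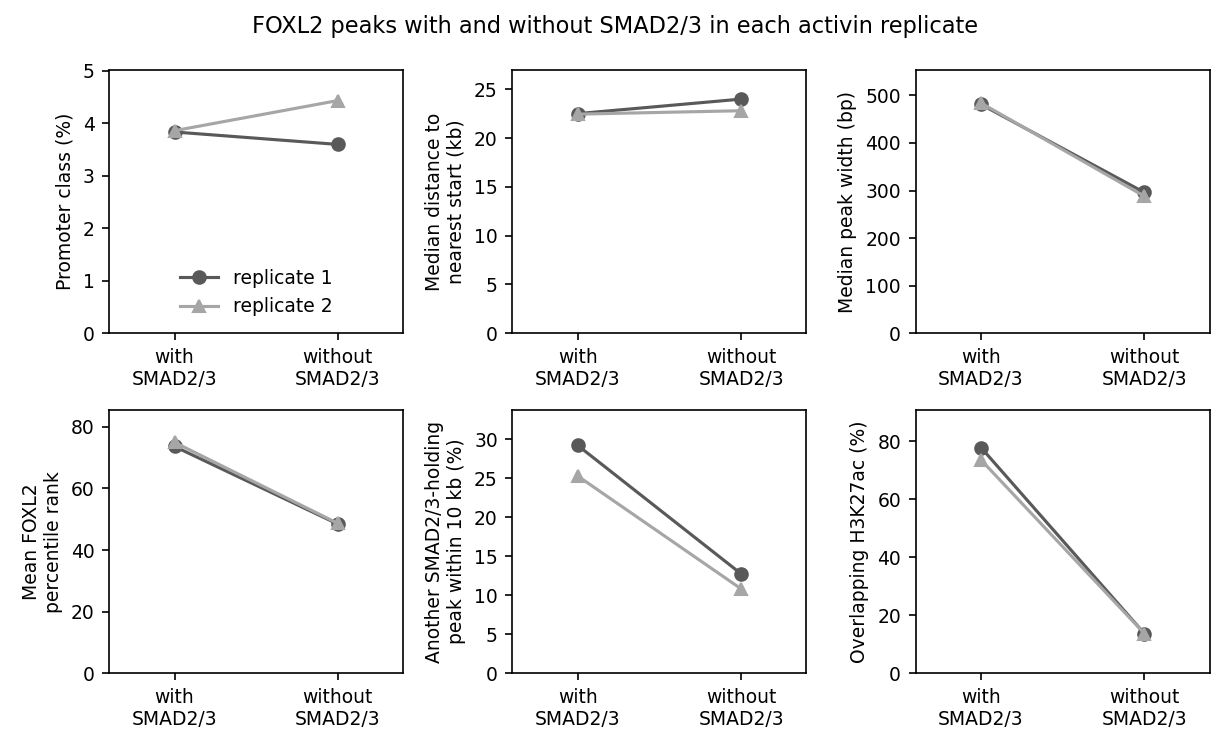
FOXL2 peaks with and without SMAD2/3 (horizontal axis) within replicate 1 and replicate 2, for 6 measures with units on each vertical axis; each line joins the values of a replicate. Width, rank, neighbours and acetylation differ alike in both replicates, while the promoter share differs in opposite directions.

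The genomic class and the distance to a gene start separated the regions little. Promoter regions, by the deposited class, made up 3.49% of the FOXL2 regions with SMAD2/3 and 3.65% of those without, a difference of -0.159 points. Within replicate 1 the shares were 3.83% and 3.59%, and within replicate 2 they were 3.85% and 4.43%, so the difference changed sign and did not exceed the spread (exact two-sided permutation p = 1). Without the second FLAG library it was 0.0235 points, and weighted to the rank deciles it was 0.46 points. Intergenic regions made up 39.5% with and 35.0% without SMAD2/3, and intron regions 51.7% and 54.3%. The promoter share was higher with SMAD2/3 on 6 of 20 chromosomes.

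The median distance to the nearest start was 22407 bp with SMAD2/3 and 23603 bp without. In replicate 1 it was 22513 and 24000 bp, and in replicate 2 22458 and 22809 bp, a mean ratio of 0.961 ± 0.0329 (SD, n = 2). Between 1 and 500 kb from a start, the share of FOXL2 regions that held SMAD2/3 stayed between 4.99% and 5.48%. It was 4.79% within 1 kb and 3.61% (26 of 721) beyond 500 kb. Regions upstream of the nearest start held it in 5.34% of cases and those downstream in 5.06%. The share holding SMAD2/3 thus varied little with distance over all FOXL2 regions.

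Class and distance did separate the acetylated FOXL2 regions, an alternative chosen after seeing the data. Of these, 3.99% of those with SMAD2/3 (interval 3.38% to 4.71%) were promoters, against 10.3% of those without (9.77% to 10.9%). The shares were 4.23% and 10.1% in replicate 1, and 4.59% and 14.1% in replicate 2. The median distance was 21164 bp with SMAD2/3 and 15553.5 bp without, a ratio of 1.36, the opposite direction to that over all regions. It was 21344 against 15923.5 bp in replicate 1 and 21070.5 against 14148 bp in replicate 2. Acetylated promoter regions held SMAD2/3 in 10.8% of cases (133 of 1232), acetylated intron regions in 23.4% and acetylated intergenic regions in 29.1% (1246 of 4279).

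Promoters were also the class most often acetylated, at 41.9% of promoter FOXL2 regions against 15.0% of intergenic and 17.4% of intron regions. Both differences together left the promoter share over all regions nearly level. Among regions that were not acetylated, 0.762% of promoter and 1.69% of intergenic regions held SMAD2/3, and the ratio of distances was 1.15. Regions with SMAD2/3 thus lay farther from a start both among acetylated and among other regions. Over all regions the ratio was 0.949, in the opposite direction.

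**Figure D3:**
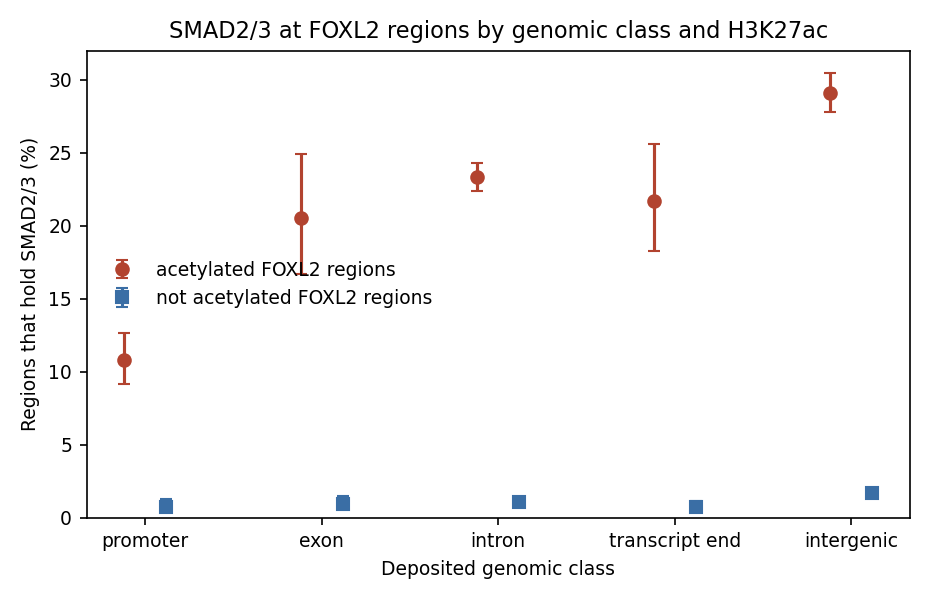
Share of FOXL2 regions that hold SMAD2/3 (percent, vertical axis) by deposited genomic class (horizontal axis), for acetylated and not acetylated regions, with Wilson 95% intervals. Among acetylated regions promoters are lowest at 10.8% and intergenic regions highest at 29.1%.

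SMAD2/3-holding FOXL2 regions had each other as neighbours more often. Another such region lay within 10 kb of 23.8% of the FOXL2 regions with SMAD2/3 and of 9.59% of those without. In replicate 1 the shares were 29.2% and 12.7%, in replicate 2 25.3% and 10.8%, a difference of 15.5 points ± 1.41 (SD, n = 2). Within acetylated FOXL2 regions the difference was nearly nil, at 27.7% with SMAD2/3 and 27.5% without. In replicate 1 these were 33.9% and 34.4%, and in replicate 2 30.5% and 28.8%. Where FOXL2 regions were not acetylated, the shares were 8.58% and 6.70%. This split by acetylation was also chosen after seeing the data.

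The number of neighbouring FOXL2 regions moved with SMAD2/3 to a smaller degree. FOXL2 regions with SMAD2/3 had 2.33 other FOXL2 regions within 10 kb on average, and those without had 1.89. The share holding SMAD2/3 was 3.52% with no such neighbour and 7.05% with 6 or more, over which the acetylated share went from 10.1% to 34.2%. The part of acetylation in that rise was not tested.

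**Figure D4:**
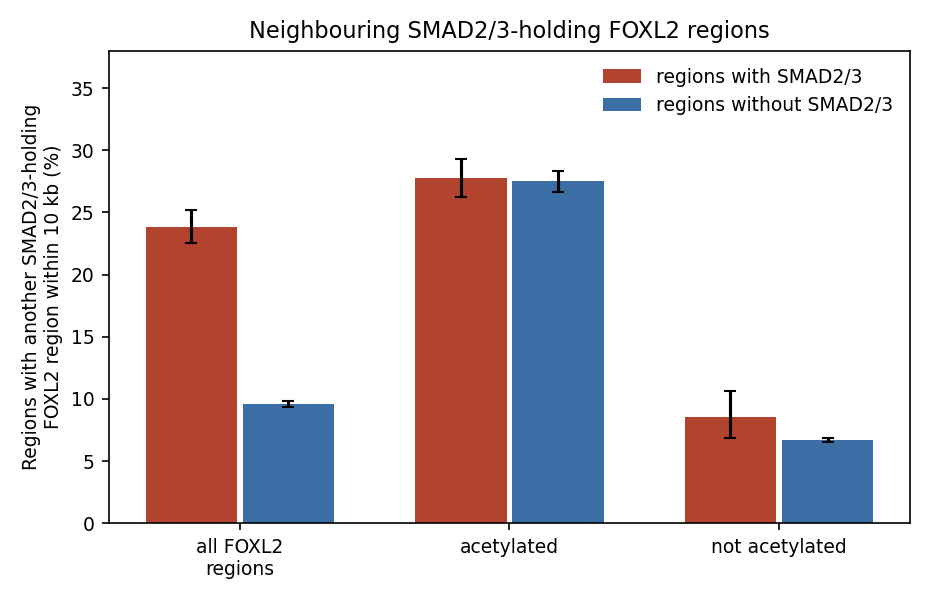
Share of FOXL2 regions with another SMAD2/3-holding FOXL2 region within 10 kb (percent, vertical axis), for regions with and without SMAD2/3, over all regions and by acetylation (horizontal axis); bars are shares and whiskers Wilson 95% intervals. The gap of 23.8% against 9.59% over all regions is 27.7% against 27.5% among acetylated ones.

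Joined at 10 kb, the regions with SMAD2/3 formed 3643 runs, of which 3188 had a single member, 384 had 2 and 59 had 3. The longest run had 7 members over 21268 bp (chr6:58959909-58981176), all acetylated, among 14 FOXL2 regions in that span, with the noncoding gene BB365896 nearest. Runs of 5 lay at Gm13269 on chromosome 2 and at Gucy2f, a retinal guanylate cyclase gene, on chromosome X. Of the 9 runs of 4, those with the highest mean FOXL2 rank lay near Mdfic and Gm37941, with mean FOXL2 ranks of 95.02 and 94.1. The members of these 5 runs were acetylated except 1 of the 4 at Mdfic.

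Inside the FOXL2 peaks, SMAD2/3 summits sat close to FOXL2 summits. The median distance between them was 30 bp in replicate 1 (6110 peaks) and 31 bp in replicate 2 (4851 peaks), and 69.5% and 67.6% lay within 50 bp. In FOXL2 peaks of rank under 50 the medians were 38 and 41 bp, and in those of rank 95 or more 27 and 26 bp. In acetylated peaks 7.02% and 7.42% of summit pairs lay over 200 bp apart, and in the others 1.33% and 2.89%. The median was similar in promoters (29 and 33 bp) and intergenic peaks (30 and 30 bp). Only overlapping peaks entered this measure. Median peak widths in replicates 1 and 2 were 238 and 233 bp for SMAD2/3. For FOXL2 they were 303 and 294 bp. The overlap rule and these widths limit the summit distance, and the distance they would give by themselves was not computed.

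**Figure D5:**
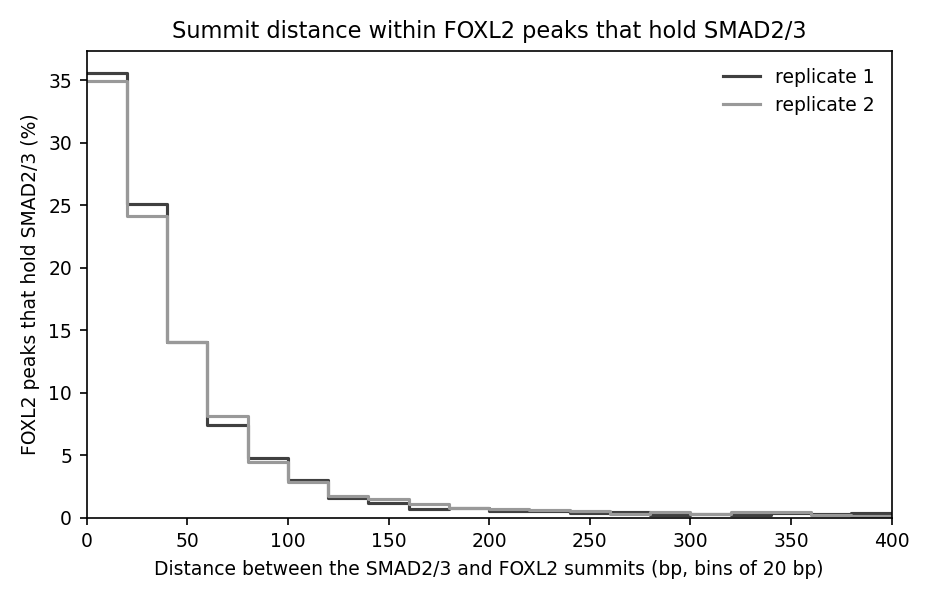
Distance between SMAD2/3 and FOXL2 summits (bp, horizontal axis, bins of 20 bp) as a share of the FOXL2 peaks that hold SMAD2/3 (percent, vertical axis), a line for each replicate. Both lines peak at the shortest distances, with medians of 30 and 31 bp.

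Within the regions that held both factors, the strength of FOXL2 said little about that of SMAD2/3. Spearman's correlation of the ranks was 0.165 over 4186 regions, 0.156 in replicate 1 and 0.18 in replicate 2, given as a description since regions share their libraries. The mean SMAD2/3 rank was 50.2 in the weakest FOXL2 decile and 63.6 in the strongest. It was 63.4 at acetylated and 46.4 at other regions.

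The 6 regions with the highest mean of both ranks were all acetylated, as were 96.3% of the SMAD2/3 regions in the strongest SMAD2/3 decile. The first, chr2:107126778-107127648, is intergenic, with the pseudogene Gm13903 nearest and Fshb 67.1 kb away. Its FOXL2 peaks were 26.6-fold and 24.7-fold enriched in replicates 1 and 2, and its SMAD2/3 peaks 18.8-fold and 24.4-fold. The second, chr2:38556783-38557522, lies in an intron with Nek6, a mitotic kinase gene, as the nearest start, with FOXL2 at 32.2-fold and 31.2-fold and SMAD2/3 at 28.5-fold and 31.3-fold. The others had as nearest starts Rps2-ps4 (chromosome 11), 2810404F17Rik (16), Trim9 (12, a neuronal ubiquitin ligase gene) and Zfp251 (15). That at Zfp251 is the only promoter region of the 6, at -987 bp from the start. Its FOXL2 values were 40.4-fold and 36.8-fold and its SMAD2/3 values 20.6-fold and 20.1-fold.

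The 6 strongest FOXL2 regions with no SMAD2/3 peak in either library each ranked above those 6 in FOXL2. They were chosen by FOXL2 rank alone and the earlier 6 by the mean of both ranks, so the choice itself favours this order. The region chr7:100107190-100108081, in an intron with Pold3, a DNA polymerase δ subunit gene, as the nearest start, was 61.8-fold and 56.4-fold enriched. That near Dock4, a guanine nucleotide exchange factor gene, was 53.6-fold and 46.2-fold, and that near Gm16246 66.0-fold and 57.1-fold. AC131325.1, Zcrb1 and Gm13666 were the other nearest starts. Of these 6, the region near Zcrb1 (64.9-fold and 56.6-fold) was acetylated and the other 5 were not. Over all regions without SMAD2/3 in the strongest FOXL2 decile, 17.7% were acetylated.

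Genes near FOXL2 regions differed in how many of those regions held SMAD2/3. A gene counts here where its start is the nearest to a region in the deposited annotation. Of 19765 genes nearest to a FOXL2 region, 2951 (14.9%) had at least 1 that held SMAD2/3. That share followed the number of FOXL2 regions, from 3.59% of genes with 1 region to 74.2% of genes with more than 20. The genes with the most SMAD2/3-holding regions were Fgf12, a modulator of sodium channels, with 10 of 71, Gm7729 with 9 of 61 and Gm29536 with 8 of 47. BB365896 had 7 of 22, Agbl1 7 of 80, Lonrf1 7 of 12, Gm6404 7 of 71, Ins1 7 of 60, RP23-378O9.1 7 of 16 and Gm23061 6 of 26. Lonrf1, which encodes a RING-finger protein, had the highest share of these 10 at 58.3%.

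Other genes had many FOXL2 regions and none with SMAD2/3. Gm22839 had 0 of 92, Gm17215 0 of 46, Gm20125 0 of 45, Lrrtm1 (a synaptic adhesion gene) 0 of 44, and Diap2 (a formin) and Dock4 0 of 42 each. Alcam, a cell adhesion gene, had 0 of 41, Gm26235 0 of 39, and Gm17473 and Bmper, which encodes a BMP-binding protein, 0 of 37 each. Their FOXL2 regions had mean ranks of 44.0 to 66.6, against 55.7 to 68.1 for the 10 genes with the most SMAD2/3. Over all FOXL2 regions 17.3% were acetylated. Of the genes without SMAD2/3, Alcam had 5 of 41 acetylated, Bmper 5 of 37, Lrrtm1 2 of 44, Gm20125 1 of 45, Gm17473 1 of 37 and the other 5 had 0. Of those with the most SMAD2/3, Lonrf1 had 8 of 12, RP23-378O9.1 11 of 16, Gm29536 31 of 47, BB365896 14 of 22 and Gm6404 27 of 71. The other 5 were lower, with Fgf12 at 17 of 71, Gm7729 at 12 of 61, Agbl1 at 14 of 80, Gm23061 at 4 of 26 and Ins1 at 8 of 60. The acetylated shares of both groups of genes thus met only at their edges. Ins1, the lowest of those with SMAD2/3, lay beside Bmper and Alcam, the highest of those without.

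For genes of known roles, FOXL2 regions within 100 kb of the RefSeq gene were counted, and 28.8% of 21887 protein-coding genes had at least 1 with SMAD2/3. Among the gonadotropin subunits and the GnRH receptor it was 3 of 4. Cga had 5 of 31 FOXL2 regions with SMAD2/3, Gnrhr 4 of 36 and Fshb 4 of 16, while Lhb, the luteinizing hormone β-subunit gene, had 0 of 4. All of these SMAD2/3-holding regions were acetylated. The genes of this list also had many FOXL2 regions, with a median of 23.5 against 6 over all genes.

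Besides its promoter, Gnrhr had a SMAD2/3-holding region 98.6 kb away (chr5:86081614-86082150) with FOXL2 at 26.3-fold and 25.5-fold and SMAD2/3 at 17.9-fold and 18.6-fold. An intron region of Gnrhr (chr5:86191406-86192376) was FOXL2-strong, at 35.1-fold and 33.6-fold, and SMAD2/3-weak, at 5.02-fold and 4.64-fold. A second region near Fshb (chr2:107118661-107119209) had 18.1-fold and 19.5-fold for FOXL2 and 13.8-fold and 15.9-fold for SMAD2/3. The region at Cga upstream of the promoter (chr4:34889490-34890340) had 22.0-fold and 19.9-fold for FOXL2 and 6.37-fold and 5.88-fold for SMAD2/3. Among the SMAD2/3-holding regions of each gene, the strongest for FOXL2 was also the strongest for SMAD2/3 at Fshb and Cga, but not at Gnrhr.

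Of the gonadotrope transcription factor genes described here, Nr5a1, Pitx1, Lhx4, Gata2, Foxl2, Isl1, Six3 and Six6 had a SMAD2/3-holding FOXL2 region within 100 kb. Lhx3 and Egr1 had none. Over all protein-coding genes, 28.8% had such a region. The full list of these factors had a median of 12 FOXL2 regions within 100 kb, against 6 over all genes. Nr5a1, which encodes the NR5A1 receptor, had 1 of 15, in an intron (chr2:38695804-38696057), with FOXL2 at 3.26-fold and 4.96-fold and SMAD2/3 at 7.83-fold and 6.96-fold. The region near Foxl2 itself (chr9:98921671-98922035, 33.6 kb away) was not acetylated, with FOXL2 at 8.75-fold and 12.7-fold and SMAD2/3 at 12.3-fold and 13.3-fold. The region counted for Gata2, 99.4 kb away, was among the strongest for FOXL2 (60.0-fold and 59.8-fold) but not for SMAD2/3 (7.15-fold and 6.01-fold).

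Of the SMAD feedback inhibitors, 8 of 11 genes had such a region: Smad6, Smad7, Ski, Smurf1, Smurf2, Tgif1, Tgif2 and Ldlrad4. Skil, Pmepa1 and Bambi had none, and Pmepa1 had no FOXL2 region at all. Ski, a repressor of SMAD complexes, had 2 of 3, the stronger with FOXL2 at 9.02-fold and 7.30-fold and SMAD2/3 at 14.9-fold and 13.6-fold. Of the receptors it was 6 of 11, of the SMAD transducers 2 of 6 (Smad3 and Smad4), and of activin and inhibin ligands and binding proteins 1 of 5, Inhbb, the gene for the activin B subunit. The better of its 2 regions (chr1:119472704-119473086) had 16.5-fold and 14.1-fold for FOXL2 and 18.6-fold and 17.8-fold for SMAD2/3. By nearest start, 5.26% of the FOXL2 regions of the inhibitor genes and 4.88% of those of the receptors held SMAD2/3, against 5.18% over all. The median number of FOXL2 regions within 100 kb was 22 for the receptors and 6 for the inhibitors, against 6 over all genes. The region counted for Acvr1c was also counted for Acvr1.

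Lists of genes with other roles were counted in the same way. AP-1 factors gave 1 of 8 (Fos), the Egr and Nr4a immediate early genes 1 of 9 (Ier3), genes of other pituitary lineages 3 of 9 and ribosomal protein genes 25 of 75. In the other lineages these were Pomc, Neurod1 and Ghrhr. The region at Ghrhr, the growth hormone-releasing hormone receptor gene, had 23.7-fold and 22.2-fold for SMAD2/3. As a check of the cell type, H3K27ac lay within 2 kb of 9 of 10 gonadotrope marker genes, all but Fshb, and of 1 of 9 markers of other pituitary lineages, Ghrhr. FOXL2 regions lay there at 7 of 10 and 3 of 9. The shares over all genes were not counted, so how unusual these numbers are is not known. Lists of a few genes with unequal numbers of FOXL2 regions cannot be ranked by these counts.

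The SMAD2/3 regions without FOXL2 numbered 941, of which 702 had no FOXL2 peak in either library and 239 had a peak in a single library. They were weaker in SMAD2/3, with a mean SMAD2/3 rank of 48.9 against 59.7 for those with FOXL2. Within replicate 1 the mean ranks were 40.1 and 52.6, and within replicate 2 39.2 and 52.3. FOXL2 was present at 74.5% of the weakest decile of SMAD2/3 regions and at 97.1% of the strongest. Without FOXL2, 82.0% of the SMAD2/3 regions were acetylated and 5.74% were promoters, against 73.6% and 3.53% with FOXL2. The promoter shares were 6.56% and 3.75% in replicate 1, and 6.72% and 3.83% in replicate 2. SMAD2/3 regions were thus mostly acetylated whether or not FOXL2 was called.

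Their median gap to the nearest FOXL2 region was 5971 bp, and 14 of the 941 lay within 100 bp of a FOXL2 region, just outside the overlap rule. The 6 strongest without any FOXL2 peak were all acetylated and none was a promoter, against 81.2% acetylated and 4.99% promoters over all 702. Rxra, the gene of a retinoid X receptor, was nearest to the first (chr2:27654190-27654765), at 16.7-fold and 19.9-fold. Efcab8 was nearest to the second (19.4-fold and 20.2-fold) and Gm13553 to the third (21.5-fold and 25.6-fold), both on chromosome 2. Gm29176, Gm13586 and Pde6a, a rod phosphodiesterase gene, followed with 10.7-fold to 13.2-fold.

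Promoter windows were the regions whose sequence could be read, 250 bases before to 50 after each RefSeq start. Of 32817 windows, 564 held a FOXL2 summit, 23 of them in regions with SMAD2/3 and 541 in regions without. CAGAC was in 56.5% of the windows with SMAD2/3 (interval 36.8% to 74.4%), 47.1% of those without (43.0% to 51.3%) and 49.6% of all windows. GTAAA was in 39.1% (22.2% to 59.2%) and 53.2% (49.0% to 57.4%), against 31.5% of all. The longer forkhead word TGTTTAC was in 13.0% (4.54% to 32.1%) and 13.9% (11.2% to 17.0%), against 3.65% of all windows. For each of these words the intervals with and without SMAD2/3 overlapped.

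CAAGGTC was in 5 of the 23 windows with SMAD2/3, 21.7% (interval 9.66% to 41.9%), in 4.25% of those without (2.85% to 6.30%) and in 3.96% of all. Windows can share bases where a gene has several starts, and this word was singled out after its values were seen. AGATAA, the GATA factor word, was in 30.4% (15.6% to 50.9%) and 15.7% (12.9% to 19.0%), against 11.2% of all. The other words searched were the SMAD words CAGA, with GGCGC as well as GGCTC in GC-rich form, the forkhead word TATTTAC, the AP-1 word TGANTCA, the bicoid-type homeodomain word TAATCC, the LIM homeodomain word TAATTA, the TEAD word GGAATG and the E-box CAGCTG, all on both strands, and their intervals with and without SMAD2/3 overlapped. CAGA lies within CAGAC. A word in a window describes its letters and not binding there. The windows with SMAD2/3 held a median of 5 CpG dinucleotides and those without 15, against 7 over all windows. Their G and C content was 49.7% and 53%, against 52.7% over all.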

How the data were processed

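ChIP-seq libraries of activin-treated LβT2 cells were compared: 2 with SMAD2/3, 2 with FLAG and 2 with H3K27ac antibodies. Bowtie2, MACS2 and HOMER, with GRCm38 and mm10, are named in the submitters' processing notes. The authors deposited a peak list for each library, with peaks named and so called per library. Its values are the peak caller's fold enrichment (a linear ratio), the −log10 q, and a deposited score that, from its values, is 10 times the −log10 q. The class and the distance to the nearest start come from the deposited HOMER annotation, per the file headers, an other value in bp. Filters and the use of a control are not given in the sources used here.

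Peaks were merged at 1 bp with Python 3.11.15, numpy 2.4.6 and pandas 2.3.3. Wilson intervals of 95% cover counting error only, and permutations used scipy 1.17.1. Overlap and weighting steps were tested on simulated data. Replicates share a library letter in the labels (C or D), so values within a replicate use both antibodies of that letter. The members and gene lists were chosen with earlier results of these data known. Named were the 6 regions of highest rank of each kind, the 5 longest runs, the 10 genes with the most SMAD2/3-holding regions, the 10 with the most FOXL2 regions and none holding SMAD2/3, and the genes of the lists, of which some are not reported here. Ties were settled by mean rank. The planned word count around all summits was replaced by RefSeq promoter windows (GRCm38.p6), since no genome sequence was used here. Of 7618 genes compared, 99.97% lay on the same chromosome in RefSeq and the deposited annotation, but only 59.1% of starts agreed within 100 bp and 71.5% within 1000 bp, so promoter windows and nearest starts can refer to different starts of a gene. Genes of the lists matched RefSeq symbols, and 119 of 164 had a promoter window. Depth is unknown. Alternatives were a −log10 q of at least 5, 50% overlap, SMAD2/3 in either replicate, each SMAD2/3, FLAG and H3K27ac library left out (H3K27ac added after seeing the data), a replicate block, weighting to rank deciles, rank by fold, a 50 kb window, starts within 1 kb as promoters and vehicle H3K27ac.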

Additional observations from a re-analysis of the deposited data

How the results depend on the processing

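Over the alternatives, 52 of 85 recomputed values were counted as unchanged, 29 moved beyond the replicate spread and 4 changed direction. The cause was not tested. Among the 52 were counts of nearest genes that lay further from the main count of 2951 than their replicate SD of 462. These were 4142 with SMAD2/3 in either replicate, 3896 without the second SMAD2/3 library and 3655.5 with the replicate block. Counting SMAD2/3 in either replicate, 7.90% of FOXL2 regions held it, and the contrasts were 59.0 points for acetylation, 173 bp for width and 21.4 for rank. The rank contrast was 19.7 with peaks under a −log10 q of 5 left out and 17.0 ranked by fold. With a 50 kb window the neighbour contrast was 19.7 points, and with vehicle H3K27ac the acetylation contrast was 47.2 points. Weighted to the rank deciles, width differed by 55 bp and the promoter share by 0.46 points.

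Leaving out each SMAD2/3 and FLAG library in turn, and for acetylation also each H3K27ac library (added after seeing the data), the share holding SMAD2/3 ranged from 4.40% to 7.30%, acetylation from 60.6 to 68.7 points, width from 176 to 200.5 bp, rank from 21.6 to 26.8, distance ratio from 0.934 to 0.984, promoter share from -0.745 to 0.0235 points, neighbours from 13.7 to 15.3 points and genes from 3001 to 3896. The value of 0.0235 is that without the second FLAG library. With the replicate block, pairing libraries of the same letter, the contrasts were 62.1 points for acetylation and 25.8 for rank, and no direction changed.

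Alternatives added after seeing the data used acetylated FOXL2 regions only, with neighbours at 0.229 points, promoter share at -6.35 points, distance ratio at 1.36, width at 167 bp and rank at 19.7. In regions that were not acetylated these were 1.88 points, -1.04 points, 1.15 and, for rank, 26.0. The CAGAC count around all summits was not run. Without read counts, depth cannot be set against the number of peaks called.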
